A study of Homo sapiens with 6 samples.

Results

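The translation elongation factor genes EEF1A1, EEF1B2, EEF1D, EEF1G and EEF2 were examined together with TPT1, NAP1L1, GNB2L1 (also called RACK1) and VIM, other genes long grouped with the terminal oligopyrimidine (TOP) mRNAs. These 9 genes were chosen by name from 17167 named genes with an mRNA in the mRNA-seq table, and 18 of the table's 31170 mRNA transcripts belong to them. One of the 18, a NAP1L1 transcript, has no name in the table and was assigned by its RefSeq accession. EEF1A1, EEF2, EEF1G, TPT1, GNB2L1 and VIM have 1 transcript each, NAP1L1 has 2, EEF1B2 has 3 and EEF1D has 7.

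The libraries come from HEK293T, a human embryonic kidney line that carries the SV40 large T antigen, grown in medium with serum. LARP1-bound RNA was sequenced by PAR-CLIP, in which cells take up 4-thiouridine, the RNA is crosslinked to protein by UV light, and LARP1 with its RNA fragments is pulled down with an antibody to the endogenous protein. There was 1 library of growing cells and 1 of cells in 2.5 µM PP242, an inhibitor of the kinase mTOR (mTOR-inactive), and both received 100 µM 4-thiouridine for 14 hours and 150 mJ/cm2 of UV. Poly(A) mRNA was sequenced in 2 libraries of growing cells without inhibitor and 2 of cells with 2.5 µM PP242, none with 4-thiouridine. The time in PP242 and any vehicle given to growing cells are not given in the sources used here. The mRNA-seq duplicates are biological, and the p-values below measure the spread between these libraries of one cell line.

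TOP mRNAs begin with a cytosine followed by a run of pyrimidines directly at the cap, and they encode mainly ribosomal proteins and translation factors. When mTOR is active they are translated efficiently, and when mTOR is inhibited their translation is held back more than that of other mRNAs, usually without loss of the mRNA. LARP1 is an RNA-binding protein reported to contact the cap and the first nucleotides of TOP mRNAs, poly(A)-binding protein and mTORC1. Some of these contacts are disputed. The authors of these data propose that LARP1 may not be a true TOP-binding protein in cells. They also propose that it meets poly(A)-binding protein indirectly, through shared mRNAs.

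The first 20 bases of the annotated mRNAs are shown because the TOP motif is what the group is named for. They were taken from the MANE Select transcript of each gene in GENCODE (GRCh37 coordinates) and lie in the 5’UTR part of exon 1. Capitals mark the pyrimidine run that starts at the first base. EEF1D was left out of the sequence display.
EEF1A1 (chr6:74230736-74230755, minus strand): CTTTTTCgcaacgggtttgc
EEF2 (chr19:3985442-3985461, minus strand): CTCTTCCgccgtcgtcgccg
EEF1B2 (chr2:207024619-207024638, plus strand): CCTTTTTCCTCTCTTCagcg
EEF1G (chr11:62341344-62341363, minus strand): actttgcggcagcgccgaga
TPT1 (chr13:45915299-45915318, minus strand): CTTTTCCgcccgctcccccc
NAP1L1 (chr12:76478446-76478465, minus strand): CTTTTTTagcgccatctgct
GNB2L1 (chr5:180670887-180670906, minus strand): CTCTCTTTCactgcaaggcg
VIM (chr10:17270240-17270259, plus strand): gggaggcccacgtatggcgc
VIM, transcript VIM-201 (chr10:17271277-17271296, plus strand): CTCTgccactctcgctccga

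Of the 8 genes examined in this way, 6 began with C followed by at least 4 more pyrimidines, as 891 of 18922 MANE Select transcripts did (4.71%). The runs were 7 bases in EEF1A1, EEF2, TPT1 and NAP1L1, 9 in GNB2L1 and 16 in EEF1B2. EEF1G starts with A at this annotated end, ahead of a short pyrimidine stretch. The MANE Select start of VIM lacks a run, and VIM-201, another annotated VIM isoform, starts with 4 pyrimidines. Over all annotated coding transcripts of these 8 genes, 18 of 70 had such a start (4 of 14 for EEF1A1, 5 of 18 for GNB2L1, 6 of 18 for NAP1L1, 1 of 9 for TPT1, 1 of 4 for EEF1B2, 1 of 2 for EEF2 and none for EEF1G and VIM). The share over all annotated coding transcripts of other genes was not computed, and the 4.71% above covers MANE Select transcripts only. An annotated end need not be the end used in these cells, and neither assay maps mRNA starts.

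All 18 member transcripts passed the filter for the mRNA test, a mean of at least 1 RPKM (reads normalized to transcript length and to the number of mapped reads) over the 4 libraries. Member levels in growing cells ranged from 15.0 RPKM for an EEF1D isoform to 1860 RPKM for EEF1A1. After PP242, EEF2 and VIM rose and no member fell. Of 21014 transcripts tested, 731 were higher (3.48%) and 1356 lower (6.45%) at an adjusted p under 0.05 in limma with Benjamini-Hochberg adjustment. Among the members 2 of 18 transcripts were higher and 0 lower. At an unadjusted p under 0.05 there were 4 of 18 member transcripts, all higher, and 5865 of the 21014 tested in either direction (27.9%), so the members' share was not above that of all transcripts. The median log2 change of the 18 transcripts was 0.026, compared with -0.0013 over all transcripts tested, and 17 of 18 were above 0, compared with 49.4% of all transcripts. Both treated libraries were above both growing ones in 9 of 18 member transcripts and in 28.5% of all transcripts tested, so such separation is common. Both were below in 0 of 18 and in 6296 of 21014. By leading transcript 7 of the 9 genes were separated upward, all but EEF1D and NAP1L1. Isoforms of one gene share reads, so the 18 member values are not independent.

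EEF1A1 delivers aminoacyl-tRNA to the ribosome. Its transcript (NM_001402.5) measured 1866 and 1854 RPKM in growing cells and 1944 and 1960 RPKM in mTOR-inactive cells. The groups did not overlap, and the mean moved from 1860 ± 8.96 to 1952 ± 11.2 RPKM (SD, n = 2 libraries each), or 4.94%. The log2 change of 0.07 (SE 0.017) missed the threshold at a limma adjusted p of 0.0587. When transcripts were summed by gene before the test, this single-transcript gene's levels stayed as they were. The variances were then fitted over genes and the list of tests was shorter, and the limma adjusted p was 0.0336 (SE 0.019). It was 0.0338 with the replicate number as a block, 0.199 without the variance trend and 0.336 when transcripts under 1 RPKM were kept.

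EEF2 moves the ribosome along the mRNA by one codon. It measured 713 and 685 RPKM in growing cells and 853 and 840 RPKM in mTOR-inactive cells (NM_001961.3). Both treated libraries were above both growing ones, and the mean rose from 699 ± 20.3 to 846 ± 8.81 RPKM (SD, n = 2), an increase of 21.1%. The log2 change was 0.28 (SE 0.025, limma adjusted p = 0.00371). It remained between 0.25 and 0.31 in the 11 alternatives, whose adjusted p ran from 5.06e-05 to 0.08, the last when transcripts under 1 RPKM were kept in the test.

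EEF1B2, EEF1D and EEF1G form the exchange factor complex that returns eEF1A to its GTP-bound state, EEF1B2 and EEF1D being the exchange subunits and EEF1G a structural one. EEF1G (NM_001404.4) measured 1095 and 1065 RPKM in growing cells and 1115 and 1105 RPKM in mTOR-inactive cells. The treated mean was above the growing one by 2.76%, and the log2 change of 0.04 had a 95% interval of -0.01 to 0.09 (limma adjusted p = 0.279). The leading EEF1B2 transcript (NM_021121.3) measured 145 and 143 RPKM, then 148 and 146 RPKM, with a log2 change of 0.02 (95% interval -0.03 to 0.08, limma adjusted p = 0.53). The other EEF1B2 transcripts changed by 0.01 and 0.03 on the log2 scale.

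The 7 EEF1D transcripts had mean levels of 15.1 to 22.9 RPKM over the 4 libraries. The leading one (NM_001960.4) measured 23.2 and 22.2 RPKM in growing cells and 23.8 and 22.5 RPKM in mTOR-inactive cells. These ranges overlapped, as they did for all 7 transcripts, and the log2 change of 0.02 had a 95% interval of -0.07 to 0.11 (limma adjusted p = 0.729). Leaving out growing library 2 or mTOR-inactive library 1 turned it to -0.0074 or -0.015. Reads that matched several transcripts had been divided evenly between them, so the level of one isoform understates the gene. Summed over isoforms, EEF1D reached 139 ± 4.40 RPKM in growing and 140.4 ± 5.62 RPKM in mTOR-inactive cells (SD, n = 2), and EEF1B2 410.4 ± 3.21 and 416 ± 2.75 RPKM.

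TPT1 encodes the translationally controlled tumour protein, an abundant growth-related protein whose mRNA is a long-known TOP message. It measured 695 and 694 RPKM in growing cells and 722 and 728 RPKM in mTOR-inactive cells (NM_003295.2). The groups did not overlap, and the log2 change of 0.06 (SE 0.018) missed the threshold (limma adjusted p = 0.0858). In growing cells the TPT1 values lay inside the range of EEF2, and after PP242 both EEF2 values lay above both TPT1 values.

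GNB2L1 encodes RACK1, a WD-repeat scaffold of the small ribosomal subunit. It measured 1126 and 1102 RPKM in growing cells and 1150 and 1143 RPKM in mTOR-inactive cells (NM_006098.4). The log2 change was 0.04 with a 95% interval of -0.01 to 0.09 (limma adjusted p = 0.229). NAP1L1, a histone chaperone of the nucleosome assembly protein family, measured 62.4 and 63.4 RPKM, then 63.2 and 67.6 RPKM, in its leading transcript (NM_004537.4). Its groups overlapped, and the log2 change of 0.05 had a 95% interval of -0.03 to 0.14 (limma adjusted p = 0.375). The other NAP1L1 transcript measured 60.6 and 61.0 RPKM, then 61.2 and 66.2 RPKM, without overlap. Its log2 change of 0.06 had a 95% interval of -0.03 to 0.16 (limma adjusted p = 0.331).

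VIM encodes vimentin, an intermediate filament protein of mesenchymal and cultured cells. It measured 212 and 210 RPKM in growing cells (mean 211 ± 1.76 RPKM, SD, n = 2) and 238 and 239 RPKM in mTOR-inactive cells (238 ± 0.657). Both treated libraries were above both growing ones, and the increase of 12.8% corresponded to a log2 change of 0.17 (SE 0.020, limma adjusted p = 0.00704, transcript NM_003380.3). Across the 11 alternatives the log2 change lay between 0.16 and 0.19, and the adjusted p between 0.000663 and 0.0713, the last with the transcripts under 1 RPKM included.

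**Figure D1:**
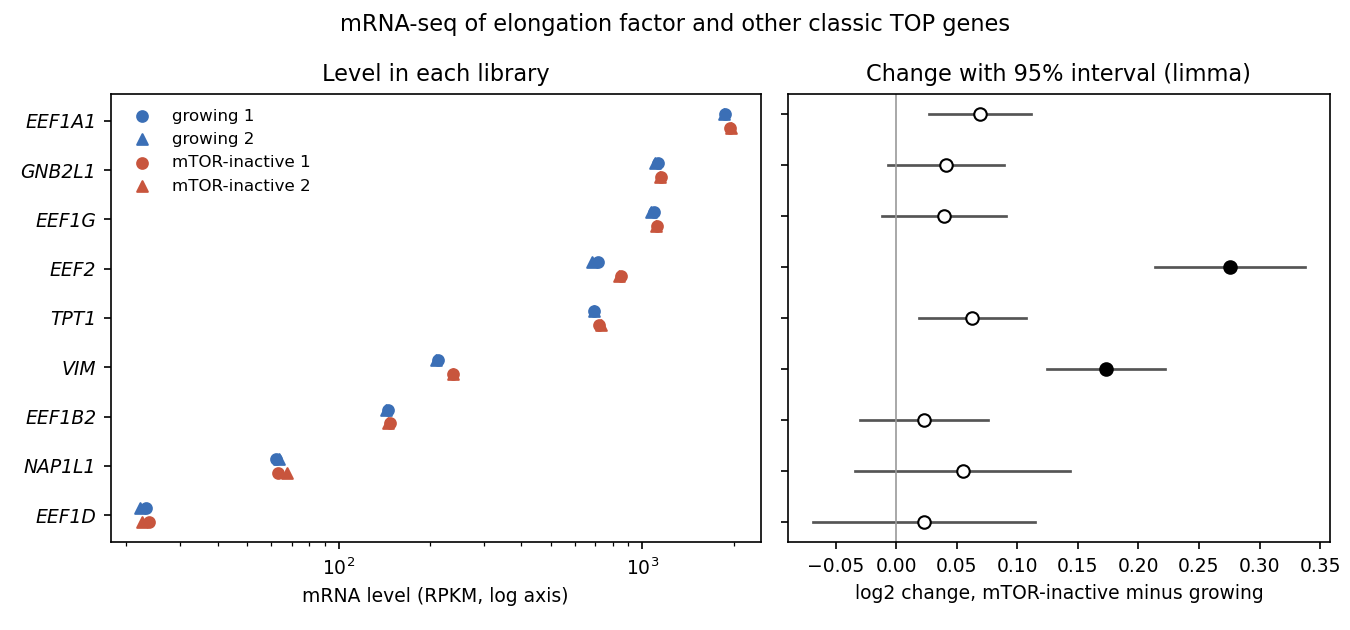
Left, RPKM (log axis) of the leading transcript of each gene in each of the 4 mRNA-seq libraries. Right, the log2 change after PP242 with its 95% interval from limma, filled where the adjusted p was under 0.05: EEF2 at 0.28 and VIM at 0.17 are filled, and all 9 genes lie to the right of 0.

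In order of mean RPKM, which is corrected for transcript length, the leading transcripts ranked EEF1A1, GNB2L1, EEF1G, EEF2, TPT1, VIM, EEF1B2, NAP1L1 and EEF1D. GNB2L1 and EEF1G were close neighbours, with growing means of 1114 ± 17.3 and 1080 ± 21.2 RPKM (SD, n = 2) and no overlap within a condition, and EEF2 and TPT1 overlapped in growing cells. The other neighbours were separated across all 4 libraries. For the members other than GNB2L1 and EEF1G the most similar transcripts of other genes were sought by Euclidean distance over the 4 libraries in log2(RPKM + 1). The nearest was RPS4X for EEF1A1 (distance 0.031), RPL6 for TPT1 (0.043) and YBX1 for EEF2 (0.25), and the second nearest were RPS6, RPS13 and RPL8. VIM was nearest to SFPQ and RPS24 (0.082 and 0.092), EEF1B2 to KHDRBS1 and TXN (0.041 and 0.044), NAP1L1 to TOP2B and SMC1A (0.040 and 0.045) and EEF1D to FAM125A and GLUL (0.022 and 0.041). EEF2 had the most distant nearest neighbour of these 7.

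LARP1 sites are given in RPM, the reads summed over a site and scaled by the mapped reads of its library. The lists held 3948 sites in growing and 3947 in mTOR-inactive cells, of which 469 were listed in both. The read number behind a site is not stated and was not derived here, so no counting interval or detection floor is given. With 1 library per condition no difference between the lists has a replicate check, and a site that is not listed is not a measured 0. Of the transcripts listed as HEK293T markers, CDH2, KRT18, NEFM and VIM were at 15.7 RPKM or more in every mRNA-seq library, KRT8 and NEFL at 2.87 RPKM or more, and PAX2 at 0.136 RPKM or less. Of the markers of other cell types, ALB, APOA1, PECAM1 and PTPRC were at 0.203 RPKM or less and COL1A1 at 1.84 RPKM or less. No value was found for CD3E and HBB, which were also among the chosen markers.

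In growing cells 2 of the 9 genes, TPT1 and GNB2L1, had a LARP1 site of at least 1 RPM. In mTOR-inactive cells 6 of the 9 did, these same genes with EEF1A1, EEF1G, EEF2 and VIM. Among 10799 named genes with a mean of at least 1 RPKM, 189 (1.75%) had such a site in growing cells and 414 (3.83%) in mTOR-inactive cells. EEF1B2, EEF1D and NAP1L1 had no site in either list. None of the 11 member sites (2 in growing, 9 in mTOR-inactive cells) was listed in both libraries. Of all distinct mRNA sites of at least 1 RPM, 16.2% of 247 in growing and 8.76% of 548 in mTOR-inactive cells were listed in both, and with so few member sites the counts cannot be told apart from these shares. The sites were 17 to 36 nt long. The column for T-to-C conversions, the mark of the crosslinked 4-thiouridine, stood within 5% of its usual multiple of RPM (25.8 in growing and 28.3 in mTOR-inactive cells) at all 11, as at 69.2% and 80.1% of the distinct mRNA sites of at least 1 RPM.

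Sites are named below by their first and last nucleotide on the RefSeq transcript, counted in the authors' coordinates, and by the region the authors marked. The RefSeq versions of their annotation were not used here, so the distances to start and stop codons are bounds. They follow from those marks and the coding length of the MANE Select transcript, with the midpoint of a site taken to lie inside its marked region.

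GNB2L1 carried the strongest member site. In mTOR-inactive cells it was a 3’UTR site at nucleotides 1076 to 1099 with 3978 RPM, the 4th of 548 distinct mRNA sites by RPM. Its midpoint lay within the first 32 nt after the stop codon. In growing cells the GNB2L1 list entry was a different site, at nucleotides 93 to 109 of the 5’UTR, with 1.85 RPM and rank 227 of 247. Its midpoint was at most 31 nt from the start codon, near the end of the 5’UTR and away from the pyrimidine run shown above. It was the only 5’UTR site of any member, and none was listed after PP242.

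EEF1G, EEF1A1 and EEF2 had sites on the mTOR-inactive list and none on the growing list. EEF1G had 3 sites, at 1120 RPM (nucleotides 289 to 309) and 810 RPM (1035 to 1070) in the CDS and at 87.3 RPM (1471 to 1488) in the 3’UTR. The CDS sites lay between 10.3% and 22.7% and between 67.6% and 80.1% of the coding length, and the 3’UTR site within 165 nt of the stop codon. EEF1A1 had a CDS site at nucleotides 1298 to 1328 with 1123 RPM and a 3’UTR site at 1452 to 1472 with 280 RPM. These were on either side of the stop codon, the former between 89.3% and 94.5% of the coding length and the latter within 73 nt of its end. EEF2 had 1 site, in the CDS at nucleotides 1143 to 1166, with 550 RPM.

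TPT1 was the one member with more RPM in growing cells. It had 1449 RPM at a CDS site (nucleotides 473 to 492) in growing cells and 236 RPM at a 3’UTR site (695 to 722) in mTOR-inactive cells, 6.13-fold less. The growing list gave exactly the same RPM to a second transcript without a name in the table (NM_207422.2, nucleotides 743 to 762), which was measured at 0.124 RPKM against 694 RPKM for TPT1. The reads of this site therefore cannot be assigned to TPT1 alone. Without it, 1 member (GNB2L1) is left in growing cells. VIM had a 3’UTR site at nucleotides 1942 to 1965 with 1707 RPM in mTOR-inactive cells, ranking 28th of 548, and no site in growing cells.

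**Figure D2:**
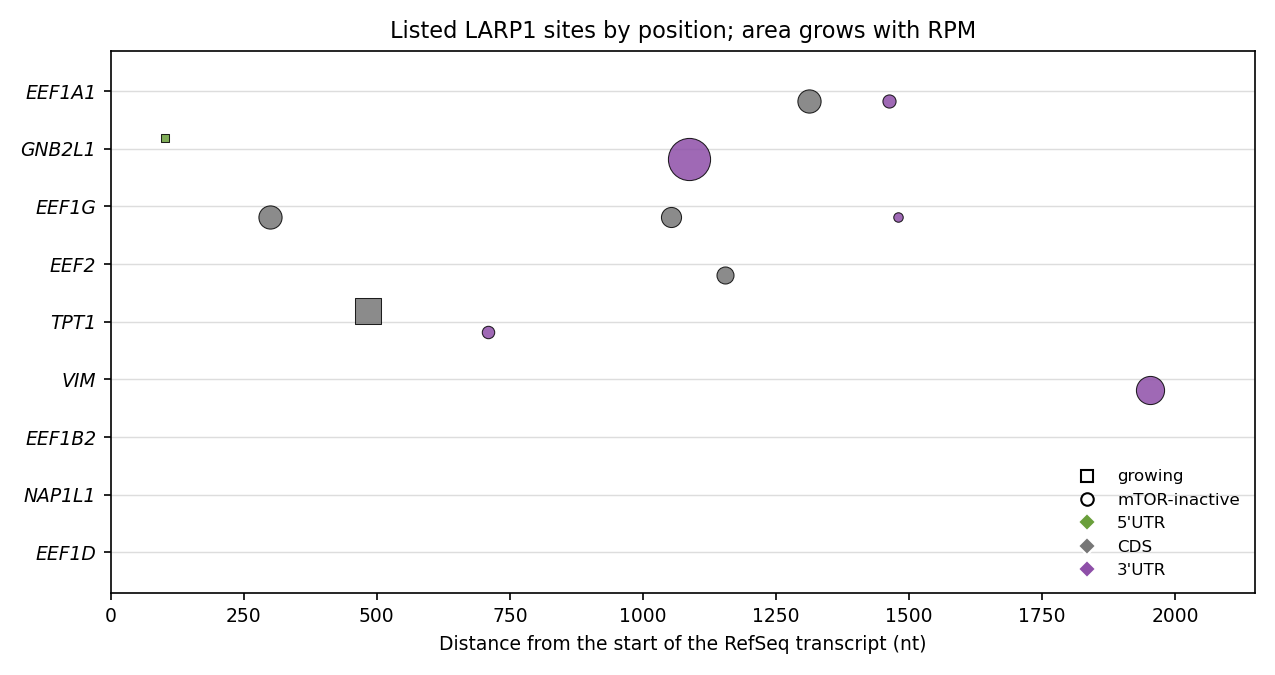
Position of each listed LARP1 site on the RefSeq transcript (distance from its start in nt), in growing (squares) and mTOR-inactive cells (circles), coloured by region, with symbol area growing with RPM. The 9 circles are in the CDS or 3’UTR, the largest being GNB2L1 at 3978 RPM, and the single 5’UTR site is GNB2L1 in growing cells at 1.85 RPM.

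Summed over the members, LARP1 sites held 1450.4 RPM in growing and 9891 RPM in mTOR-inactive cells, 0.552% and 3.51% of the RPM on the leading transcripts of all named genes. All but 1.85 RPM of the growing sum was the TPT1 site whose reads are also listed on another transcript. After PP242, 4 member sites with 36.4% of the RPM were in the CDS, 5 with 63.6% in the 3’UTR and none in the 5’UTR. Over all named genes the shares were 40.1%, 56.1% and 3.77%. GNB2L1 alone held 3978 of the 6288 RPM in member 3’UTRs. Among 554 genes with at least 1 RPM in either library, 68.8% had at least 2-fold more RPM in mTOR-inactive cells and 28.7% at least 2-fold less, a gene without a listed site being counted as 0 RPM. Of the 6 members in that set 5 had more and 1 had less, shares close to those of all such genes.

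The mRNA level moved with the listing, and its part in it was not tested. In mTOR-inactive cells 66.2% of the 80 genes at 500 RPKM or more had a site of at least 1 RPM, compared with 24.6% of 309 genes at 100 to 500 RPKM and 4.34% of 4194 genes at 10 to 100 RPKM. The 5 members at 500 RPKM or more were all listed, as was VIM but not EEF1B2 in the middle class, and NAP1L1 and EEF1D in the lower class were not. In growing cells the share at 500 RPKM or more was 28.7%, and 2 of the 5 members were listed. By these leading transcripts the 3 unlisted members were the 3 lowest, and with isoforms summed EEF1B2, at 410.4 RPKM in growing cells, was above VIM at 211 RPKM. Summed in the same way, EEF1D at 139 RPKM and NAP1L1 at 124 RPKM in growing cells were below VIM but above 100 RPKM.

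**Figure D3:**
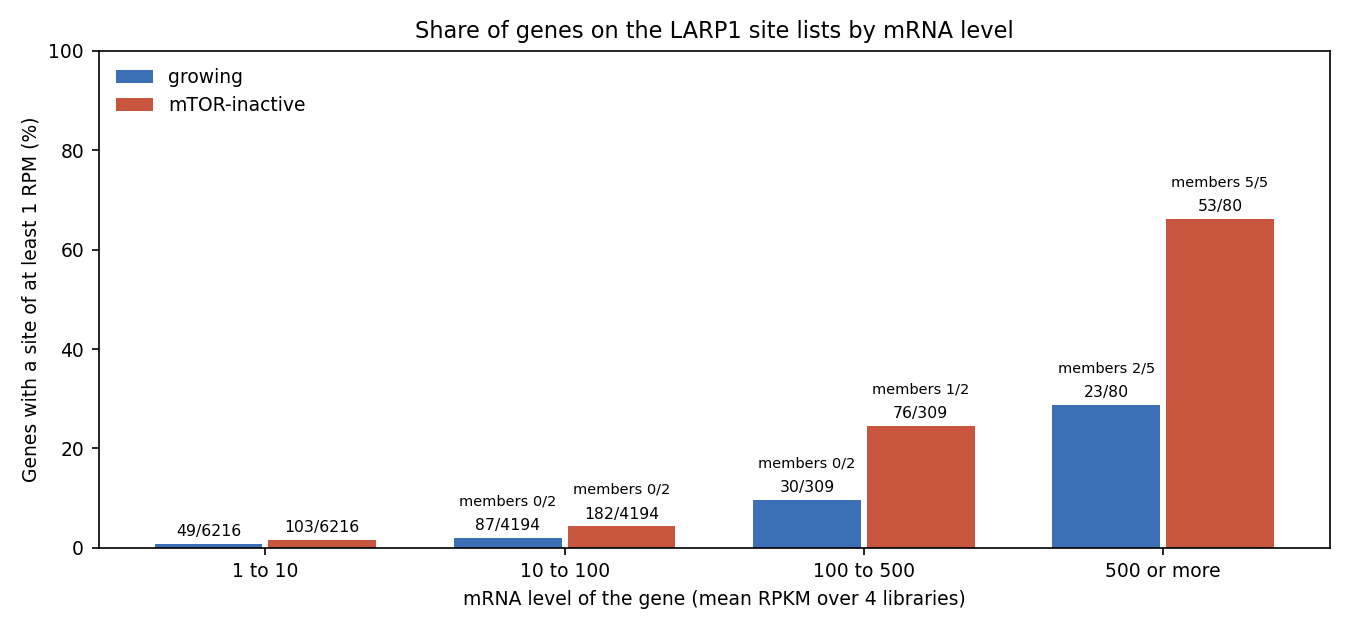
Share of named genes with a LARP1 site of at least 1 RPM (%, bars from 0) by mean RPKM of the leading transcript, in growing and mTOR-inactive cells, with the numbers of genes and of members printed above each bar. The share climbs with level to 66.2% after PP242, where all 5 members are listed.

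Divided by the mRNA level of the condition, as in the authors' normalized column, the order of the members changed. VIM stood first at 7.17 RPM per RPKM, followed by GNB2L1 at 3.47, EEF1G at 1.82, EEF1A1 at 0.719, EEF2 at 0.650 and TPT1 at 0.326 in mTOR-inactive cells. The median over listed genes with at least 1 RPKM and 1 RPM was 6.58 RPM per RPKM, so VIM was just above it and the other 5 below it. Among all 439 genes with at least 1 RPM, whatever their RPKM, VIM ranked 226th by this ratio. The minimum of 1 RPM admits a gene of low level only at a higher ratio. This median is therefore not matched for mRNA level, and no matched comparison was made. In growing cells TPT1 was at 2.09 and GNB2L1 at 0.0017 RPM per RPKM, against a median of 8.87. With this weighting 3’UTR sites made up 79.1% of the member signal after PP242. The single VIM site held 7.17 of the 14.2 RPM per RPKM summed over the members.

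**Figure D4:**
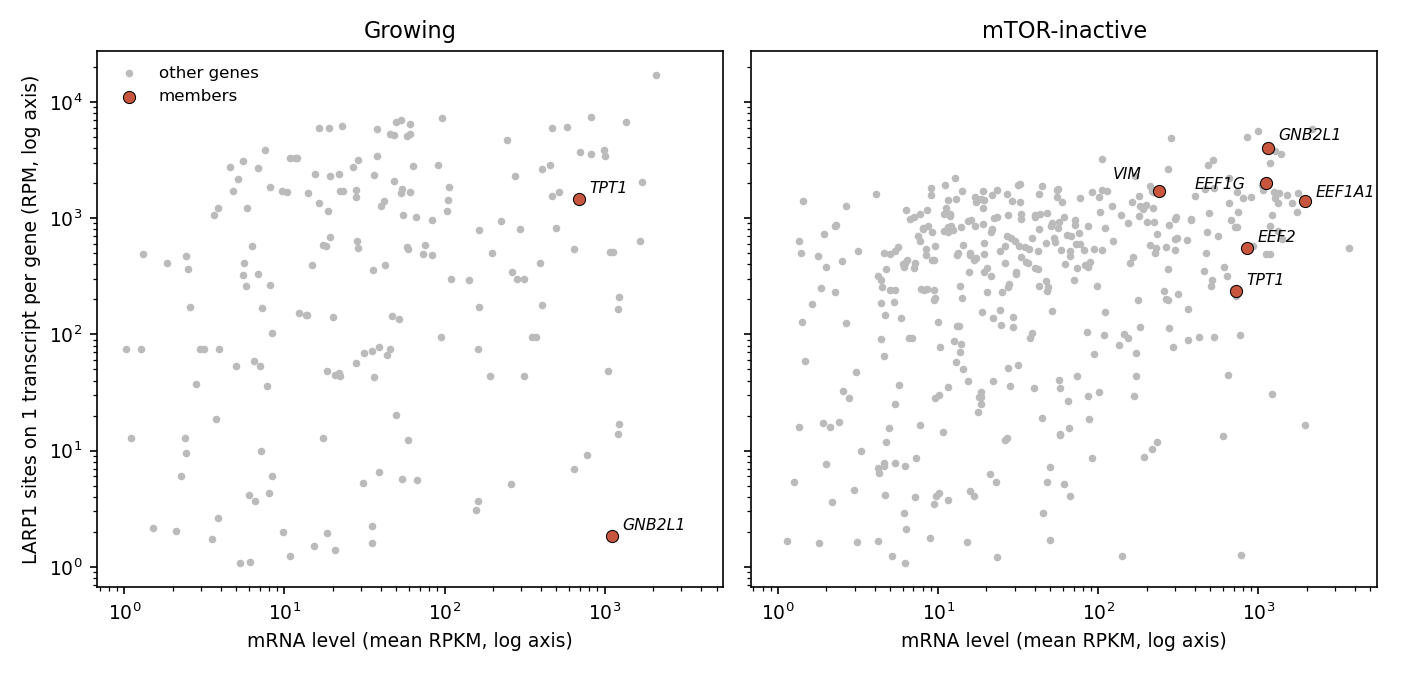
LARP1 RPM per gene against mean mRNA level (RPKM), both on log axes, for genes with at least 1 RPM in growing (left) and mTOR-inactive cells (right). Members (red) sit at the right of each panel, and after PP242 they span 236 RPM for TPT1 to 3978 RPM for GNB2L1.

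Of 21 other genes for elongation, termination and their modification, 1 was higher and 2 were lower after PP242 at the limma threshold. By transcript these were 1 and 2 of 39, beside 3.48% and 6.45% of all transcripts tested. At an unadjusted limma p under 0.05 there were 13 of 39 (33.3%), beside 27.9%. Both treated libraries were above both growing ones in 5 of 39 and below in 16, beside 28.5% and 6296 of 21014. EEF1A2, the tissue-restricted paralog of EEF1A1, measured 57.9 and 58.1 RPKM in growing cells and 66.5 and 66.9 RPKM in mTOR-inactive cells, a log2 change of 0.20 (SE 0.022, limma adjusted p = 0.00644). EIF5A2, a paralog of the hypusinated factor EIF5A, fell from 1.79 and 1.88 RPKM to 1.23 and 1.24 RPKM (log2 change -0.35, limma adjusted p = 0.00644). EEF1E1, a component of the multi-tRNA synthetase complex, fell from 42.3 and 42.0 RPKM to 37.7 and 39.2 RPKM in one transcript (NM_004280.4, log2 change -0.13, limma adjusted p = 0.0437), and its other transcript did not pass. The median log2 change over the 39 transcripts of the list was -0.01. On the LARP1 lists, EIF5A had a 3’UTR site of 43.8 RPM in growing cells. The gene EIF5AL1 had the same RPM in that list, so these reads cannot be assigned to EIF5A alone. GSPT1, the release factor eRF3a, had 3’UTR sites of 94.9 and 165 RPM in mTOR-inactive cells. No other gene of the list had a site of at least 1 RPM.

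Of 10 other genes with TOP mRNAs that do not encode ribosomal proteins, 4 rose (5 of 15 transcripts) and 0 fell. At an unadjusted p under 0.05 there were 7 of 15 transcripts, all higher, beside 27.9% of all transcripts in either direction. The list was chosen with earlier results of these data known, so these counts are not independent evidence about TOP mRNAs. The helicase EIF4A2 rose from 66.3 and 67.0 RPKM to 76.7 and 77.3 RPKM (log2 change 0.20, limma adjusted p = 0.00616). Its cofactor EIF4B changed by 0.13 (0.029), the splicing regulator HNRNPA1 by 0.10 in both transcripts (0.0261 and 0.0284) and the poly(A)-binding protein PABPC1 by 0.09 (0.0488), each on the log2 scale with its limma adjusted p. All 15 transcripts were above 0, with a median of 0.04. Of all transcripts tested, 3.48% were called in this direction. In mTOR-inactive cells PABPC1 and NPM1 had 5’UTR sites of 1675 and 320 RPM, and the same sites were listed at 0.038 and 0.0018 RPM in growing cells. EIF4A2 had a CDS site of 1496 RPM in mTOR-inactive cells. No gene of this list reached 1 RPM in growing cells.

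Of the 11 paralogs of members (EEF1A2, NAP1L2, NAP1L3, NAP1L4, NAP1L5, GNB1, GNB2, DES, NES, INA and PRPH), 8 passed the filter of 1 RPKM. EEF1A2 was the one that passed the limma threshold, 0 were lower, and at an unadjusted p under 0.05 EEF1A2 was again the only one of the 8, beside 27.9% of all transcripts. NAP1L4, close to NAP1L1 in level, measured 67.7 and 66.3 RPKM and then 68.2 and 70.7 RPKM. GNB1 and GNB2, the G protein beta subunits related to RACK1 by fold, had log2 changes of -0.0062 and -0.04. No paralog had a LARP1 site of at least 1 RPM in either library.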

How the data were processed

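HEK293T cells were profiled by LARP1 PAR-CLIP (1 library per condition) and mRNA-seq (2 per condition). The authors mapped reads to the GRCh37 transcriptome with Bowtie and deposited RPKM per transcript and library, from perfect matches with multiply mapped reads divided evenly. For PAR-CLIP the authors deposited RPM per site, site RPM divided by RPKM, and a T-to-C column whose unit is not given, so both were treated as a score. Read totals were not used here, and depth was not estimated.

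Repeated accessions (1273 lines) were dropped from the mRNA-seq table. Changes were tested with limma 3.58.1 (R 4.3.3; lmFit, eBayes with trend) on log2(RPKM + 1), which understates changes of low transcripts, in the 21014 transcripts whose mean reached 1 RPKM, adjusted over all of them by Benjamini-Hochberg. On simulated data for 20937 transcripts this step called 94 of 94 transcripts changed by 1 on the log2 scale, 97 of 98 changed by 0.3, and 12 unchanged ones. The simulated noise followed a smooth trend with level, so transcripts of similar level shared a common spread. In the data the spread differs between such transcripts, so these rates need not hold there. Sites were counted from 1 RPM on the transcript with the most RPM per gene, without a test. Other steps used Python 3.11.15 with pandas 2.3.3. All 9 members were named, with the list genes that passed the test or had a site of 1 RPM or more and the 2 nearest genes of each member (for GNB2L1 and EEF1G not reported here); NAP1L4, GNB1 and GNB2 were added after their values were seen. The members and lists were chosen with earlier results of these data known. Alternatives were the pseudocount, filter, scaling, replicate block, left-out libraries, gene sums and the variance trend, and for sites the isoform, minimum, weighting, T-to-C and shared-read rules. Noncoding transcripts under member names were kept apart.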

Additional observations from a re-analysis of the deposited data

How the results depend on the processing

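Without the filter on RPKM, 57 transcripts were higher and 63 lower, and the member count fell to 0 (EEF2 and VIM at limma adjusted p of 0.08 and 0.0713); more transcripts, most of them very low, were then tested. Leaving out one library at a time gave 309 to 348 higher and 546 to 768 lower transcripts from fewer samples, with EEF2 and VIM called each time (2 members higher, 0 lower) and a median member log2 change of 0.017 to 0.053; the log2 change of EEF1D ran up to 0.061 and turned to -0.0074 without growing library 2 and to -0.015 without mTOR-inactive library 1, while those of NAP1L1 (0.0063 to 0.10), EEF1G (0.019 to 0.059), EEF1B2 (0.013 to 0.033) and GNB2L1 (0.026 to 0.057), none of them called, kept their sign. With gene sums the median over the 9 members was 0.06, and EEF1A1 joined the calls (3 members higher). Replicate numbers did not pair the libraries (r = 0.04 between the conditions' differences of replicate 1 and 2 over 21014 transcripts); with the replicate block 3 members (EEF1A1 added, limma adjusted p = 0.0338) and 716 higher and 1419 lower transcripts were called. Shifting the libraries to the same median gave 870 higher and 1105 lower transcripts, 2 members higher and a median member log2 change of 0.04. For PAR-CLIP, a minimum of 10 RPM left 1 member in growing cells, as did leaving out sites also listed on another gene, which reduced the growing sum to 1.85 RPM, and weighting by RPKM moved the 3’UTR share after PP242 to 79.1%. The isoform rules and the T-to-C rule left the member counts, sums and share where they were, and no site minimum left the counts where they were. With 1 PAR-CLIP library per condition and read numbers that were not derived, what can be said of single sites is limited.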

Other observations

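The mRNA-seq table also carries 4 noncoding RNAs under names of member genes. By accession they are SNORA41 (in EEF1B2), SNORD95 and SNORD96A (in GNB2L1) and MIR3654 (in EEF1G), and they were left out of the member values above. SNORA41 measured 1.15 and 1.52 RPKM in growing cells and 1.11 and 0.869 RPKM in mTOR-inactive cells, and SNORD96A 9.28 and 6.36 RPKM, then 5.70 and 5.97 RPKM. MIR3654 measured 49.6 and 45.0 RPKM, then 53.4 and 46.6 RPKM. None of these 3 passed the limma threshold (adjusted p = 0.171, 0.181 and 0.536), and SNORD95, listed between 0 and 0.93 RPKM, was below the filter. For RNAs this short, poly(A) libraries and reads divided evenly between overlapping entries make these levels uncertain.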
